A study of Mus musculus with 17 samples.

Results

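Mitochondria that are damaged or no longer needed are removed by mitophagy, in which an autophagosome engulfs them and delivers them to the lysosome. In the ubiquitin route the kinase PINK1 builds up on depolarised mitochondria, their surface proteins are tagged with ubiquitin, and ubiquitin-binding adaptors such as p62 (Sqstm1) and optineurin (Optn) link the marked organelle to ATG8 proteins on the autophagosome. In the receptor route, proteins of the mitochondrial membranes (BNIP3, NIX, FUNDC1, FKBP8, PHB2) bind ATG8 proteins directly, and cardiomyocytes, which are packed with mitochondria, use both routes. The results below concern the mRNAs of 9 such genes, Pink1, Bnip3, Bnip3l (encoding NIX), Fundc1, Fkbp8, Phb2, Sqstm1, Optn and the autophagy-initiating kinase gene Ulk1. They were chosen by symbol as known mitophagy receptors and adaptors, they make up 9 of the 56748 genes counted, and all 9 were among the 16195 genes with enough reads to be tested.

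Hearts of 9 Polg hMut mice and 8 Ctrl mice aged 12 to 16 months were compared by poly(A) RNA sequencing of heart tissue. Each mouse gave 1 library. The hMut mice (Polg iMut/iMut; +/Ckmm-cre) carried both inducible Polg alleles and a Cre transgene under the muscle creatine kinase promoter, which is active in heart and skeletal muscle. Cre removes a wild-type Polg cassette, after which the allele expresses proofreading-deficient POLG with the D257A change and mtDNA mutations arise in the recombined cells. The genotype behind the label Ctrl is not given in the sources used here, and mice are numbered as in the library names (hMut 1 to 9, Ctrl 1 to 8). The comparison asks how a heart with such mtDNA mutations differs from a Ctrl heart in the mRNAs for mitochondrial removal.

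Levels are given as CPM, the read count scaled to the TMM-adjusted size of its library, and a gene is called changed at an adjusted p under 0.05 in edgeR's quasi-likelihood test, adjusted by Benjamini-Hochberg over all 16195 genes. Libraries held 32915159 to 46486964 counted reads, and the members had between 1029 and 36316 reads per heart. Polg, whose count does not tell the alleles apart, lay at 27.14 to 47.2 CPM in Ctrl and 47.05 to 65.06 CPM in hMut hearts. The hearts hMut 6 and hMut 9 stood apart from the other 15 in cell type markers. The summed CPM of 12 cardiomyocyte genes was 46820 and 44640 in them against 58980 to 72650 in the other hMut and 61000 to 74030 in the Ctrl hearts, while the sum of 8 myeloid genes was 1266 and 634.2 against 287.1 to 388.8 and 227.4 to 346.4. None of the 12 cardiomyocyte genes was called, but all 12 had a negative log2 fold change (median -0.24), and the 7 fibroblast genes had a median of 0.48 with none called. Among the other lists, 2 of 6 endothelial genes, 1 of 5 smooth muscle and pericyte genes and the 1 tested gene of the 4 skeletal muscle genes, the actin gene Acta1 (log2 fold change 1.31, edgeR adjusted p = 0.0385), were called higher. The sum of 4 atrial genes, Nppa among them, was 687.1 and 424.6 CPM in hMut 6 and hMut 9. It was 77.66 to 232.6 CPM in the other hMut and 38.34 to 165.9 CPM in the Ctrl hearts. The part of the heart taken for each library is not given in the sources used here. In bulk tissue, fewer cells of a type and less RNA per cell cannot be told apart. Values without hMut 6 and hMut 9 are therefore given beside the results they touch.

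Upstream sequence is shown for 3 members, for Sqstm1 as the single member called changed and for Bnip3 and Bnip3l as the paralogs among the members, 1 of 2 pairs whose ratio differed between the groups. Each is the 250 bases before the start of the canonical GENCODE transcript on GRCm39, read 5′ to 3′ on the gene's strand. Capitals mark matches on either strand to TGACNNNGC (core of the antioxidant response element bound by NRF2), CACGTG (the E-box bound by TFEB and other factors), ACGTG (core of the hypoxia response element, which lies within the E-box and so overlaps it) or TGATGNAA (the composite element bound by ATF4). The Sqstm1 window is chr11:50102886-50103135 (minus strand), the Bnip3 window chr7:138511254-138511503 (minus strand) and the Bnip3l window chr14:67246335-67246584 (minus strand).
Sqstm1: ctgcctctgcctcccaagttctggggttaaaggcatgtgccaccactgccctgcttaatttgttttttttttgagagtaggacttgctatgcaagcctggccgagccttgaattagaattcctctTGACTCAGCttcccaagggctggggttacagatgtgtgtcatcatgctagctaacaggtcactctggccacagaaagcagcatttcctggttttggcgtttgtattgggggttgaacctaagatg
Bnip3: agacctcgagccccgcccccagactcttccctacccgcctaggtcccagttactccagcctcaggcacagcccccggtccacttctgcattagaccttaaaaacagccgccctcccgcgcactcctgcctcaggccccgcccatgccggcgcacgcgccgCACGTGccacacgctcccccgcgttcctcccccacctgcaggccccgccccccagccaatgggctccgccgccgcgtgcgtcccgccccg
Bnip3l: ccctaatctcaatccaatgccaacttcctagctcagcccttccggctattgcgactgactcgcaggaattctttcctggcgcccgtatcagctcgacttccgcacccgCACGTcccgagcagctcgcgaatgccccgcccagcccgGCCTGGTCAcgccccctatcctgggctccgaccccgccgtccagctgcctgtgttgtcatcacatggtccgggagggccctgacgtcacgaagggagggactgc
The antioxidant core stood 125 to 117 bases before the start in Sqstm1 and 104 to 96 bases before it in Bnip3l, and was present in 10.7% of the same windows of 13724 tested protein-coding genes. The E-box of Bnip3, 90 to 85 bases before its start, was shared by 7.61% of windows and the hypoxia core, found in Bnip3, Bnip3l, Phb2 and Fkbp8, by 20.5%. The ATF4 element occurred in Fundc1 among the members and in 2.17% of windows, and the windows of Pink1, Optn and Ulk1 held none of these letters. For Sqstm1 the result depends on the start chosen, since the deposited gene model begins 1231 bases further downstream and the 250 bases before that start hold no match. These matches describe the letters of the windows, and no binding was measured.

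Sqstm1 was the 1 member of 9 called, and it rose in hMut hearts. Across all tested genes 4.62% were called and 3.48% were called higher, and the median log2 fold change of the members was -0.02 against 0.00225 for all genes. The fold changes of Bnip3, Fundc1 and Ulk1 had intervals that did not include 0 but missed the threshold after adjustment, and no member was called lower. None of the 9 members separated the hearts of the groups completely, which 0.605% of all genes did. In the same table without hMut 6 and hMut 9, in which 2.67% of genes were called, Sqstm1 was again the single member called.

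**Figure D1:**
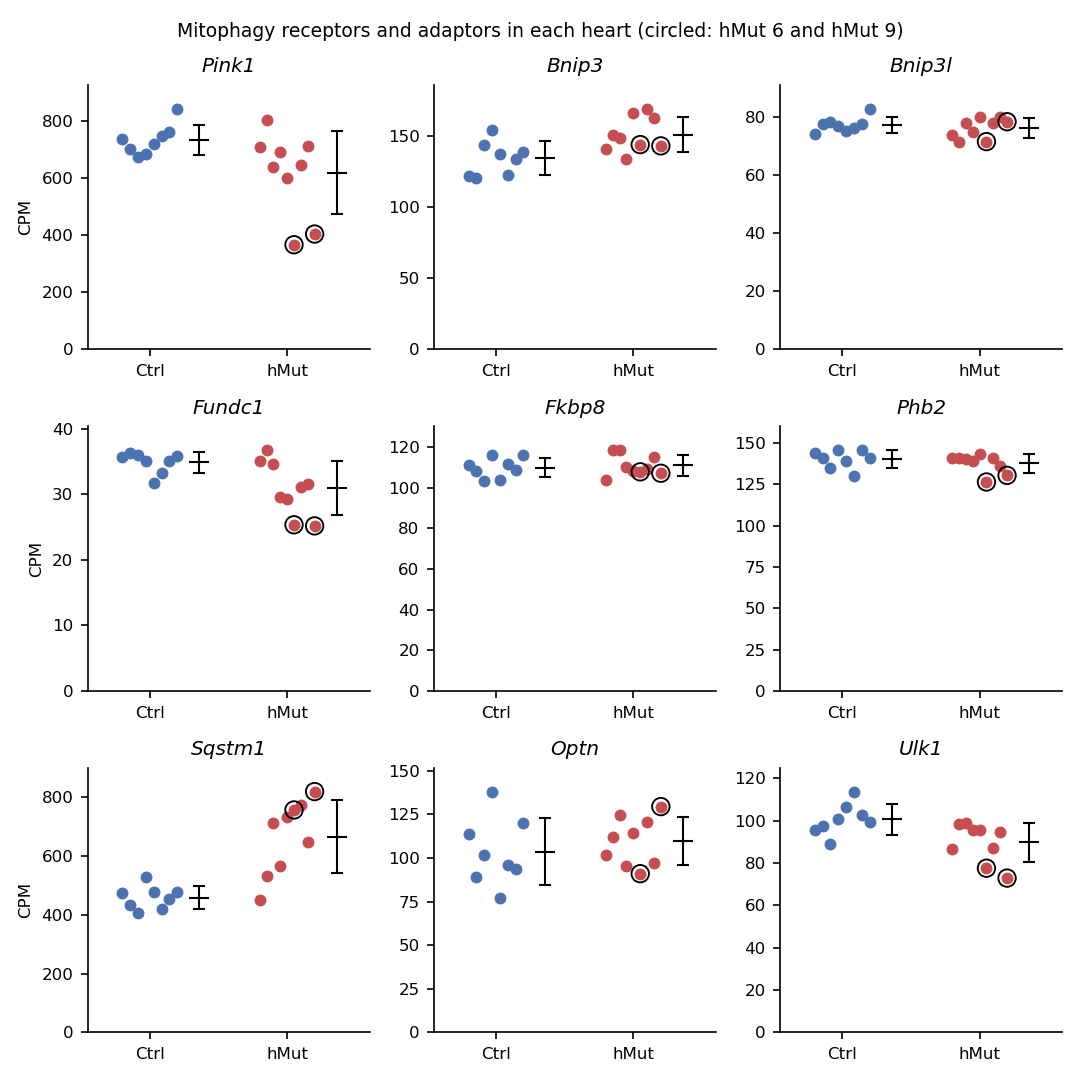
CPM (TMM-scaled, vertical axis from 0) of the 9 members in each of 8 Ctrl hearts (blue) and 9 hMut hearts (red), with the mean and SD of each group in black and hMut 6 and hMut 9 circled. In Sqstm1, 8 of 9 hMut points lie above every Ctrl point, and the circled points are the lowest of all for Pink1, Fundc1 and Ulk1.

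PINK1, the kinase that senses depolarised mitochondria, is encoded by Pink1 (ENSMUSG00000028756, chr4:138040720-138053618). Pink1 mRNA lay at 673.4 to 842.3 CPM in Ctrl hearts (median 726.8) and at 366.1 to 802.7 CPM in hMut hearts (median 643.6). The level was under the lowest Ctrl value in 5 hMut hearts and over the highest in none, and hMut 6 (366.1 CPM) and hMut 9 (403.5 CPM) were far below the other 7, which spanned 598.1 to 802.7 CPM. The mean was 618 ± 145 CPM in the 9 hMut hearts and 732 ± 53.7 CPM in the 8 Ctrl hearts (mean ± SD, as for all members), for which the log2 fold change was -0.25 ± 0.13 (SE), which was not called (edgeR adjusted p = 0.220). The 95% interval ran from a 29.7% decrease to a 1.2% increase. Without hMut 6 and hMut 9 the log2 fold change was -0.10 (adjusted p = 0.406). Over all 9 hMut hearts, these 2 included, the coefficient of variation of Pink1 was 23.4%, against 7.33% in the 8 Ctrl hearts.

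Among the membrane receptors, BNIP3 and NIX are related outer-membrane proteins, of which BNIP3 is known for its induction in low oxygen and NIX for clearing mitochondria from maturing red cells. Bnip3 (ENSMUSG00000078566, chr7:138492565-138511248) ranged from 120.4 to 154.4 CPM in Ctrl hearts (median 135.6) and from 133.6 to 169.2 CPM in hMut hearts (median 148.5). The groups overlapped, with 3 hMut hearts (hMut 5, 7 and 8) above every Ctrl heart. Its means of 151 ± 12.4 CPM in hMut and 134 ± 11.9 CPM in Ctrl (SD) gave a log2 fold change of 0.17 ± 0.06 (SE, 95% interval 0.05 to 0.29) that missed the threshold (edgeR adjusted p = 0.0933). limma-voom with sample quality weights, under which 12.8% of all genes were called, called Bnip3 higher (log2 fold change 0.22, adjusted p = 0.0177), whereas DESeq2, which called 9.33% of genes, did not (0.17, adjusted p = 0.0708).

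Bnip3l (ENSMUSG00000022051, chr14:67222688-67246326) was among the steadiest members. Its CPM was 73.89 to 82.77 in Ctrl and 71.42 to 79.9 in hMut hearts, with medians of 77.05 and 77.82. The ranges largely overlapped, with 3 hMut hearts below every Ctrl heart and none above. The 95% interval of its change ran from -6.22% to 3.58% (adjusted p = 0.719). A processed pseudogene, Bnip3l-ps, is 99.4% identical to it over 657 bases and had a median of 190 reads per heart. Another copy, Gm58964, is 99.4% identical over 1131 bases and is not among the genes counted. Reads may be split between these copies.

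FUNDC1, a receptor switched on by hypoxia, is encoded by Fundc1 (ENSMUSG00000025040, chrX:17422803-17438564), the least abundant member. Fundc1 mRNA was 31.72 to 36.26 CPM in Ctrl hearts (median 35.4) and 25.18 to 36.75 CPM in hMut hearts (median 31.14). The level was under the lowest Ctrl value in 6 hMut hearts and over the highest in 1, and hMut 6 (25.35 CPM) and hMut 9 (25.18 CPM) were again the lowest. The log2 fold change of -0.17 ± 0.07 (SE, 95% interval -0.32 to -0.03) was not called (adjusted p = 0.136), and it was -0.10 without hMut 6 and hMut 9 (adjusted p = 0.328).

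Fkbp8 (ENSMUSG00000019428, chr8:70980374-70987978) encodes an outer-membrane immunophilin that binds LC3, and Phb2 (ENSMUSG00000004264, chr6:124689299-124693913) encodes prohibitin 2, an inner-membrane protein that becomes an LC3 receptor when the outer membrane ruptures. Fkbp8 spanned 103.1 to 116.0 CPM in Ctrl (median 110.1) and 104.0 to 118.5 CPM in hMut hearts (median 109.4). Phb2 spanned 130.0 to 145.7 CPM in Ctrl (median 140.9) and 126.4 to 143.2 CPM in hMut hearts (median 140.5). Both sets of ranges overlapped almost fully, with hMut 6 the one hMut heart below all Ctrl hearts for Phb2. The 95% interval of the change was -4.29% to 6.56% for Fkbp8 (adjusted p = 0.83) and -6.64% to 3.37% for Phb2 (adjusted p = 0.659). Fkbp8 overlaps Kxd1 on the other strand, and the strand setting of the counting is not given in the sources used here.

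The adaptors behaved differently from each other. Sqstm1 (ENSMUSG00000015837, chr11:50090193-50101654), whose product p62 also gathers protein aggregates and holds KEAP1, the inhibitor of NRF2, had 406.6 to 527.1 CPM in Ctrl hearts (median 463.9). In hMut hearts it had 451.5 to 818.6 CPM (median 710.9), and 8 of 9 lay above every Ctrl heart. The exception was hMut 1 at 451.5 CPM, while hMut 2 at 530.8 CPM was just above the highest Ctrl heart. The means were 665 ± 125 CPM in hMut and 459 ± 38.7 CPM in Ctrl (SD), a log2 fold change of 0.54 ± 0.10 (SE, edgeR adjusted p = 0.00551) or 1.45-fold, with a 95% interval of 25.0% to 68.2% more mRNA. Without hMut 6 (756.2 CPM) and hMut 9 (818.6 CPM) it was 0.46 ± 0.10 (adjusted p = 0.0129), and without any 1 heart it stayed between 0.49 and 0.59 with an adjusted p of at most 0.0152. Its neighbour Mrnip, which overlaps it, had at most 72 reads in any heart.

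Optn (ENSMUSG00000026672, chr2:5025453-5068862), whose product binds ubiquitin chains after phosphorylation by TBK1, ranged from 77.16 to 138.1 CPM in Ctrl hearts (median 98.93) and from 91.03 to 129.5 CPM in hMut hearts (median 111.9). All 9 hMut hearts lay inside the Ctrl range, which was the widest of the members relative to its mean (coefficient of variation 18.7%). The 95% interval of the change, -8.75% to 22.7%, leaves both directions possible (adjusted p = 0.628).

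Ulk1 (ENSMUSG00000029512, chr5:110932354-110957963) encodes the kinase that starts autophagosome formation and phosphorylates mitophagy receptors, among them FUNDC1. Its mRNA was 89.01 to 113.8 CPM in Ctrl hearts (median 100.1) and 72.92 to 98.84 CPM in hMut hearts (median 94.83). The level was under the lowest Ctrl value in 4 hMut hearts, with the lowest values in hMut 9 (72.92 CPM) and hMut 6 (77.6 CPM). The log2 fold change of -0.16 ± 0.06 (SE, 95% interval -0.30 to -0.03) was not called (adjusted p = 0.122), and without hMut 6 and hMut 9 it was -0.10 (adjusted p = 0.283).

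**Figure D2:**
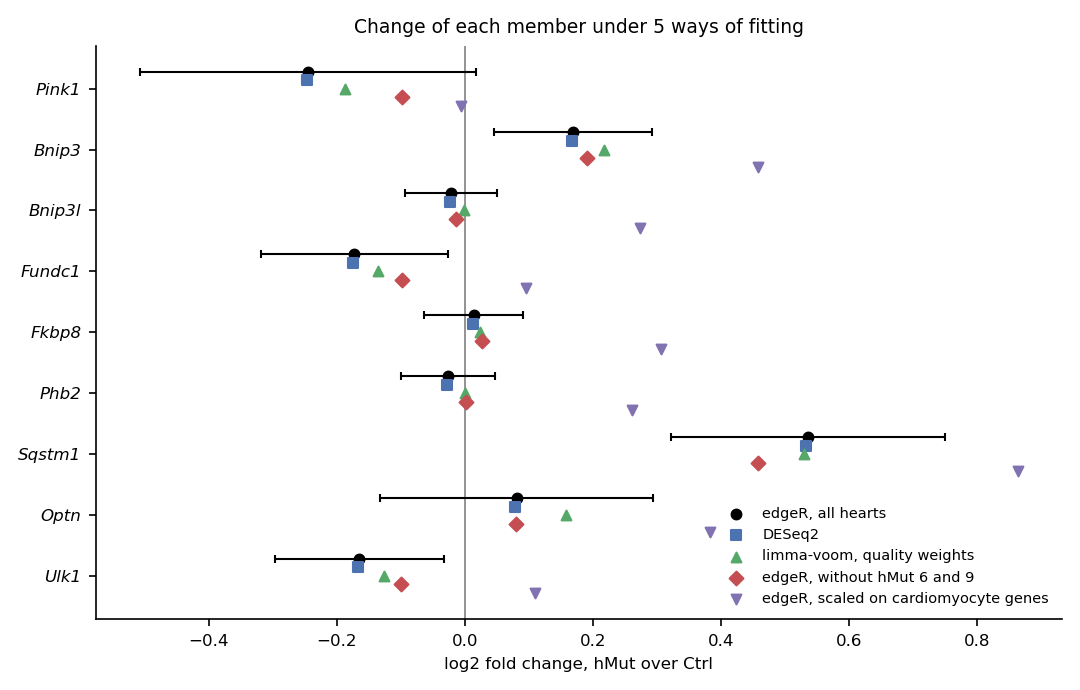
Log2 fold change of each member, hMut over Ctrl, from 5 fits, with the 95% interval of the edgeR fit over all hearts as a bar. Sqstm1 lies right of 0 in all 5 fits, and scaling on cardiomyocyte genes moves all 9 members to the right.

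The size and for some members the sign of these changes depend on what the libraries are scaled to. When libraries were scaled on the 12 cardiomyocyte genes, the median of all genes moved from 0.00225 to 0.30 on the log2 scale and 43.6% of genes were called. On that scale 6 members were called higher (Bnip3, Bnip3l, Fkbp8, Optn, Phb2 and Sqstm1), Pink1 had a log2 fold change of -0.006, and Sqstm1 stood at 0.86 and Bnip3 at 0.46. Relative to the shifted median of all genes, Pink1 was still below, and Bnip3 and Sqstm1 were above it. The sex of the mice, read from the counts and entered as a covariate, left Sqstm1 at 0.49 (adjusted p = 0.00825) and no other member called.

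Levels of different genes were compared per kb of the deposited gene model. In Ctrl hearts the order was Pink1 (274 CPM per kb), Sqstm1 (137), Bnip3 (59.2), Phb2 (37.7), Optn (27.6), Fkbp8 (24.3), Bnip3l (19.15 to 21.45 over the hearts), Ulk1 (15.5) and Fundc1 (14.8). The ranges over the 8 Ctrl hearts did not overlap between Pink1, Sqstm1, Bnip3 and Phb2, nor between Fkbp8 and Bnip3l, whereas Optn overlapped Phb2, Fkbp8 and Bnip3l, and Ulk1 overlapped Fundc1. Sqstm1 per kb was below Pink1 per kb in 8 of 8 Ctrl hearts and in 7 of 9 hMut hearts. The exceptions were hMut 6 (225.3 CPM per kb for Sqstm1, 137.0 for Pink1) and hMut 9 (243.9 and 151.0). This order depends on the gene model, since the deposited models are shorter than the merged exons of GENCODE for 8 of 9 members, for Sqstm1 3356 against 8203 bases and for Optn 3753 against 11307 bases. Per kb of merged exons, a setting chosen after seeing the data, Ctrl means were 181 for Pink1, 55.9 for Sqstm1, 37.7 for Phb2, 31.1 for Bnip3, 16.8 for Fkbp8, 14.0 for Bnip3l, 13.5 for Ulk1, 9.17 for Optn and 7.82 for Fundc1, so that Phb2 stood above Bnip3 and Optn below Ulk1. On that scale Sqstm1 and Pink1 were nearly equal in hMut 6 (92.19 and 90.46) and in hMut 9 (99.79 and 99.70).

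Ratios within a heart do not depend on the scaling, and pairs of related genes were compared by an exact permutation test (two-sided, 24310 splits of the hearts). The p-values were adjusted over 5 pairs, of which 4 are reported here. The log2 ratio of Bnip3 to Bnip3l was 0.64 to 1.01 in Ctrl and 0.84 to 1.12 in hMut hearts, and 5 hMut hearts exceeded every Ctrl heart. Its mean was 0.19 higher in hMut (0.98 ± 0.10 against 0.79 ± 0.12, SD; exact p = 0.00333, adjusted p = 0.0110). The log2 ratio of Sqstm1 to Optn was 1.93 to 2.62 in Ctrl and 2.15 to 3.05 in hMut hearts, with 5 hMut hearts above all Ctrl hearts, and its mean was 0.42 higher in hMut (exact p = 0.0044, adjusted p = 0.0110). Both differences passed with any 1 heart left out and without hMut 6 and hMut 9 (0.20, exact permutation, adjusted p = 0.0280, and 0.35, adjusted p = 0.0373). The 2 related genes in each pair thus changed unequally.

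Neither of the other 2 pairs described here passed. Ulk1 against its paralog Ulk2 differed by -0.08 (exact p = 0.237, adjusted p = 0.297). Fundc1 against Fundc2, its mitochondrial paralog, differed by 0.00259 (exact p = 0.930), and the SD of that ratio was 0.06 in each group. Fundc2 was, like Fundc1, lowest in hMut 6 (117.7 CPM) and hMut 9 (119.9 CPM).

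**Figure D3:**
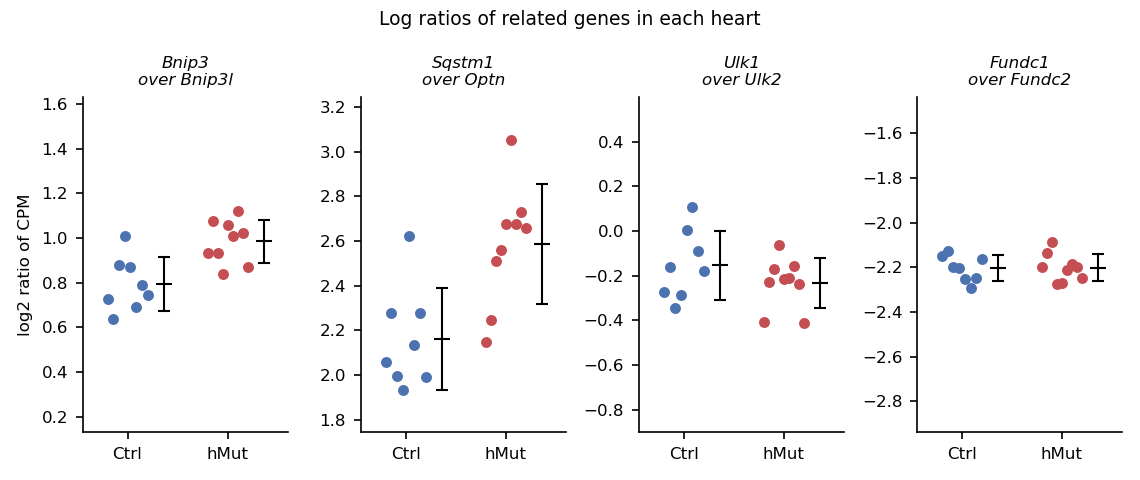
Log2 ratio of CPM of 2 related genes in each heart for 4 pairs, with group mean and SD in black; every vertical axis spans the same 1.5 log2 units. The hMut points tend to sit higher for Bnip3 over Bnip3l and Sqstm1 over Optn and Fundc1 over Fundc2 differs between the groups by less than its spread.

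The 99 other autophagy and mitophagy genes that were listed by role gave the members' surroundings. Of these, 97 were tested and none was called by edgeR, with a median log2 fold change of -0.01. At an unadjusted edgeR p under 0.05, 11 were higher and 13 lower, beside 2347 higher and 1831 lower among all 16195 tested genes. DESeq2 called 8 of 98 of the listed genes and limma-voom 10 of 97, beside the 9.33% and 12.8% of all genes given above. Leaving out hMut 2 gave 13 calls (11.1% of all genes were then called) and leaving out hMut 1 gave 7 (7.33% of all genes). Leaving out Ctrl 4, Ctrl 5 or hMut 8 gave 1 (4.28%, 2.72% and 5.42% of all genes), and leaving out any other heart gave 0. The count of 0 thus depends on certain single hearts, and the share of all genes called changed with them too. Calcoco2, the gene of the adaptor NDP52, had 0 reads in all 17 hearts, and Chdh, a receptor of damaged mitochondria, had 3 to 42 reads and was not tested.

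In the group of 21 genes that act with PINK1 or regulate it, 14 had a negative log2 fold change, beside 8017 of all 16195 tested genes. The median of the group was -0.02, and 1 gene was lower and 1 higher at an unadjusted edgeR p under 0.05. Rhot2, encoding a Miro GTPase of the outer membrane that is removed during mitophagy, had a log2 fold change of -0.28 (edgeR adjusted p = 0.0738). Rhot2 was 48.3 CPM in hMut 6 and 58.43 in hMut 9 against 70.6 to 86.82 in the other hMut hearts. Usp8, which encodes a deubiquitinase, stood at 0.14 (adjusted p = 0.0973), and Tbk1, the kinase of Optn and Sqstm1, at 0.10 (adjusted p = 0.375).

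Among the 13 tested adaptors and receptors outside the members, the nearest to the threshold were Wdfy3, encoding the large scaffold ALFY that binds p62 (log2 fold change 0.17, adjusted p = 0.0685), and Fundc2 (-0.18, adjusted p = 0.0772). Nbr1, the relative of Sqstm1 that works with it, was at -0.10 (adjusted p = 0.102), Tax1bp1 at -0.02 (adjusted p = 0.767) and Tollip at -0.11 (adjusted p = 0.186), so that none of these 3 ubiquitin-binding adaptor genes was called. Bcl2l13, a receptor related to BCL2, was at -0.05 (adjusted p = 0.553), and Phb, the partner of Phb2, at -0.03 (adjusted p = 0.776). Of the 4 listed genes whose products act on or with BNIP3 and NIX, Tmem11 was at 0.27 (adjusted p = 0.0681), and Pptc7 (-0.14), Fbxl4 (-0.02) and Rheb (-0.01) were not near the threshold.

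The ATG8 genes, whose products the receptors bind, did not share 1 direction. Gabarapl1 had a log2 fold change of 0.21 (adjusted p = 0.0707) and Gabarap of 0.09 (adjusted p = 0.234), while Map1lc3b had -0.13 (adjusted p = 0.157) and Map1lc3a -0.16 (adjusted p = 0.228). Map1lc3a was 238.5 CPM in hMut 6 and 271.1 in hMut 9 against 330.7 to 425.5 in the other hMut hearts. Gabarap in these 2 hearts (170.8 and 178.2 CPM) lay above the Ctrl range of 137.6 to 159.6, and it spanned 145 to 170.6 CPM in the other hMut hearts. In the ULK complex, Rb1cc1, encoding the scaffold FIP200, was at -0.17 (adjusted p = 0.0612) and Atg13 at 0.04 (adjusted p = 0.641). In the class III PI3K complex, Uvrag was at 0.22 (adjusted p = 0.0551, the smallest of the list) and Becn1, encoding Beclin 1, at 0.14 (adjusted p = 0.0800). Among the regulators Mitf, a relative of TFEB, was at -0.24 (adjusted p = 0.0880) and Foxo3, which can drive Bnip3, at -0.30 (adjusted p = 0.215).

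The members varied between hearts in different ways. In hMut hearts, log2 CPM of Pink1 and Fundc1 had the highest Pearson correlation of the 36 pairs (Pearson's r = 0.889, exact p = 0.00184, adjusted p = 0.0663; Spearman's rho = 0.833, adjusted p = 0.149; n = 9), and r was 0.64 without hMut 6 and hMut 9. By rank, Fkbp8 and Ulk1 were highest (rho = 0.85, exact p = 0.00607, adjusted p = 0.149), with r = 0.66 (exact p = 0.0553, adjusted p = 0.221). Pink1 and Sqstm1 ran opposite to each other (exact permutations, r = -0.673, adjusted p = 0.217, and rho = -0.783, adjusted p = 0.155). Their r stayed at -0.71 without hMut 6 and hMut 9 (exact p = 0.0722). Fundc1 and Sqstm1 were as opposed (exact permutations, r = -0.683, adjusted p = 0.217, and rho = -0.783, adjusted p = 0.155). Without hMut 6 and hMut 9 their r was -0.521. Pink1 with Ulk1 (r = 0.85) and with Phb2 (r = 0.853) rested on those 2 hearts, since r was 0.134 and -0.338 without them. No pair passed adjustment over the 36 pairs in hMut or in Ctrl hearts, with 8 and 3 pairs at an unadjusted exact p under 0.05 for Pearson's r. In the 8 Ctrl hearts Pink1 and Sqstm1 had r = 0.155 (exact p = 0.718) and rho = 0.214 (exact p = 0.619), and the difference in r between the groups was not tested.

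**Figure D4:**
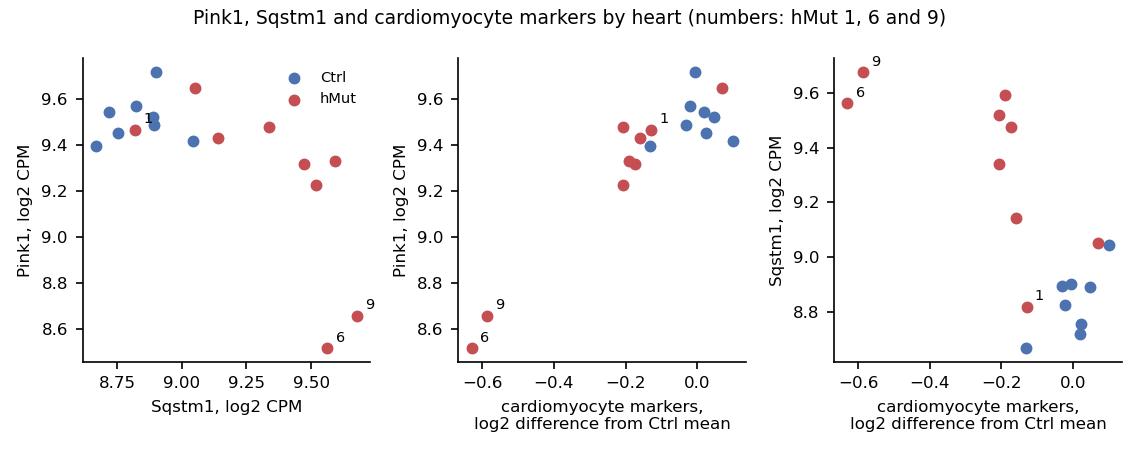
Left, Pink1 against Sqstm1 (log2 CPM) in each heart; middle and right, Pink1 and Sqstm1 (log2 CPM) against the mean log2 difference of 12 cardiomyocyte genes from the Ctrl mean, with Ctrl in blue, hMut in red and hMut 1, 6 and 9 numbered. hMut 6 and hMut 9 are lowest in Pink1 and in the cardiomyocyte genes and high in Sqstm1.

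The low Pink1, Fundc1 and Ulk1 of hMut 6 and hMut 9 went with low cardiomyocyte genes, whose mean log2 difference from Ctrl was -0.63 and -0.59 in these hearts and ranged from -0.21 to 0.07 in the remaining 7. Sqstm1 was high in both of them (756.2 and 818.6 CPM). It was 647.5 to 772.6 CPM in hMut 3, 5, 7 and 8, with cardiomyocyte values (-0.17 to -0.21) below every Ctrl heart (lowest -0.13). In hMut 4, also below every Ctrl heart (-0.16), Sqstm1 was 564.4 CPM. It was lowest in hMut 1 and hMut 2, whose cardiomyocyte values (-0.13 and 0.07) were the highest of the hMut hearts. In the Ctrl hearts the extremes ran the other way. Sqstm1 was lowest in Ctrl 3 (406.6 CPM), whose cardiomyocyte value was the lowest (-0.13). It was highest in Ctrl 4 (527.1 CPM), whose cardiomyocyte value was the highest (0.10). In hMut hearts the sum of the 4 skeletal muscle genes, made up almost wholly of Acta1, moved with Sqstm1. It was 254 and 134 CPM in hMut 1 and hMut 2, 424.4 to 1386 CPM in the other 7 and 197 to 362.9 CPM in Ctrl hearts. The other genes of that list had too few reads to be tested, so the sum gives the level of Acta1 and not the share of a cell type. The part of cell type in the levels of Pink1, Fundc1, Ulk1 and Sqstm1 was not tested.

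Genes most like each member across the 17 hearts, after the mean of each group was removed, were named by Pearson's r of log2 CPM as a description. Pink1 was followed most closely by Dcaf11 (r = 0.982) and Camk2a (0.982), with r of 0.936 and 0.89 without hMut 6 and hMut 9. Camk2a was itself called lower (log2 fold change -0.45, edgeR adjusted p = 0.0332), and Dcaf11 was not called (-0.22, adjusted p = 0.0853). Sqstm1 was followed by Rpusd1 (0.951) and Psmd8, a subunit of the proteasome's regulatory particle (0.937). Rpusd1 was not called (log2 fold change -0.02, edgeR adjusted p = 0.853), and Psmd8 was called higher (0.35, adjusted p = 0.0169). Fundc1 was nearest to Ndufb1, a complex I subunit gene (0.937), and Acadsb, an acyl-CoA dehydrogenase gene (0.933). Optn was nearest to Htatip2 (0.925) and Ulk1 to Nipal3 (0.915), and for Bnip3 the highest r was 0.78 (Gm8242), the lowest maximum of the 9 members. The best matches were Iscu for Bnip3l (0.799), Cyb5rl for Phb2 (0.889) and Tmem223 for Fkbp8 (0.825). All these points share a library, its depth and its cell makeup.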

How the data were processed

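Heart tissue of 9 hMut and 8 Ctrl mice was sequenced as poly(A) libraries. The authors cleaned the reads (fastp), mapped them with HISAT2 2.2.1 on GRCm39 and counted them per gene with featureCounts 2.0.6 (versions from the submitters' processing notes), and deposited raw read counts per gene for all 17 libraries. No normalization had been applied to these counts.

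Genes were filtered with filterByExpr, scaled by TMM and tested with edgeR 4.0.16 (quasi-likelihood, condition as the single term, Benjamini-Hochberg over 16195 genes, threshold 0.05). Log2 CPM used a prior count of 2. The SE of a fold change was derived from the F statistic. Pair ratios and correlations used exact permutations of hearts. In simulated counts with 200 of 16195 genes changed by 1 log2 unit, 85% were called, as were 10 unchanged genes. The members' changes were smaller (0.54 for Sqstm1, the largest), so this share does not tell how often changes of their size would be called. DESeq2 1.42.0 and limma 3.58.1 were alternatives. Each library is 1 mouse, so p-values measure the spread between mice. Sequence windows came from GRCm39 with GENCODE vM39, and copies of the members were sought with BLAST 2.17.0+ (at least 95% identity over 150 bases).

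The members and gene lists were chosen with earlier results of these data known. The genes named were the 9 members, fixed partner genes, up to 4 genes per autophagy group with the smallest adjusted p, and for each member its 2 most correlated genes. A fixed partner gene, and the pair that includes it, are not reported here. Protein sequences were not used here.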

Additional observations from a re-analysis of the deposited data

How the results depend on the processing

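Apart from the fits with 1 heart left out, Sqstm1 rose in all 11 alternatives and was called in 10, all but the replicate block. The 749 calls over all genes became 7068 with scaling on cardiomyocyte genes, 1517 with DESeq2 and 2081 with limma-voom. They became 463 without a filter on low counts, 431 without hMut 6 and hMut 9 and 395 to 1792 with 1 heart left out. Of calls, 75.3% were higher in edgeR, 56.5% in limma-voom, 99% with cardiomyocyte scaling, 85.3% without a filter and 86.7% with the block. Members called numbered 1, against 6 with cardiomyocyte scaling and 2 with limma-voom. Other autophagy genes called numbered 0, against 1 with upper-quartile scaling, 67 with cardiomyocyte scaling, 8 with DESeq2, 10 with limma-voom and 0 to 13 with 1 heart left out. Nothing in the sources used here says that equal numbers in the library names pair the hearts. Deviations from the group means correlated over 0.1 in 1 of 8 same-numbered pairs (0.339, number 8). Low correlations of this kind cannot show that a pairing is absent. With the replicate block, which drops hMut 9, 195 genes and 0 members were called, Sqstm1 had a log2 fold change of 0.48 (edgeR adjusted p = 0.0613), and the pair differences were 0.21 for Bnip3 and Bnip3l and 0.41 for Sqstm1 and Optn (exact sign-flip, adjusted p = 0.0586 each).

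Fundc1 over Fundc2 ranged from -0.012 to 0.014 with 1 heart left out. The following log2 fold changes had the opposite sign to the edgeR value, and the cause was not tested. With cardiomyocyte scaling, which moves the median of all genes up, these were Bnip3l 0.27, Fundc1 0.0956, Phb2 0.26, Ulk1 0.11, Fundc2 0.0932, Ulk2 0.20, Phb 0.24, Nbr1 0.19, Tax1bp1 0.27, Tollip 0.17, Bcl2l13 0.23, Rhot1 0.19, Nipsnap2 0.0102, Pptc7 0.12, Fbxl4 0.25, Rheb 0.27, Map1lc3b 0.15, Map1lc3a 0.0932, Rb1cc1 0.11, Pik3r4 0.16, Atg2a 0.11, Atg9a 0.15, Stx17 0.18, Mitf 0.0185 and Prkab1 0.0820. With limma-voom they were Phb2 0.00106, Phb 0.0186, Fbxl4 0.00588 and Rheb 0.00709, without hMut 6 and hMut 9 Phb2 0.00206, Phb 0.0354, Bcl2l13 0.00399, Fbxl4 0.0169 and Rheb 0.0170, and with upper-quartile scaling Fkbp8 -0.00150 and Atg101 -0.00756. With 1 heart left out, Fbxl4 ranged from -0.0431 to 0.00383, Rheb ranged from -0.0266 to 0.000951 and Atg101 ranged from -0.0439 to 0.0375.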
